A study of Homo sapiens with 6 samples.

Results

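The proteasome is the barrel-shaped protease that degrades ubiquitin-tagged proteins in the cytosol and nucleus of human cells. The genes of its constitutive subunits were followed here in HCT116, a line from a human colorectal carcinoma, after 5aza. They were taken as the rows of the expression table whose Ensembl identifier maps to a symbol made of PSMA, PSMB, PSMC or PSMD and a number, without PSMB5 to PSMB10. This gave 31 genes of 16715 identifiers: 13 of the core particle (8 PSMA and 5 PSMB) and 18 of the regulatory particle (6 PSMC and 12 PSMD). PSMD10 and PSMD11 were not analysed here. One further row, PSMC3IP, begins like the rule but encodes a cofactor of meiotic recombination and no proteasome subunit, so it was kept apart.

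HCT116 cells given 5 µM 5aza during 48 hours, followed by 48 hours in fresh medium, made up 3 libraries, and control HCT116 cells made up the other 3. The table's columns code the treated libraries as DAC while the sample titles say 5aza. The labels do not say what the control cells were given in place of the drug. Drugs of this kind resemble cytidine and trap DNA methyltransferases, and the series concerns DNA methylation and transcripts. All libraries came from 1 cell line, and nothing in the labels says that replicates were separate cultures, so p-values measure only the spread between these libraries, which may be technical.

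In the core particle, alpha and beta subunits form stacked rings: the outer alpha rings gate the entrance and the inner beta rings hold the proteolytic sites. The regulatory particle caps the barrel. Its base holds the ATPases encoded by the PSMC genes, which unfold the substrate, and its lid holds the deubiquitinase PSMD14 and scaffold proteins. In human cells the transcription factor NFE2L1 is known to raise most of these genes together when proteasome activity is short.

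Promoter sequences are shown for 3 subunits chosen by their values. Their CpG sites are marked because CpG sites are where human DNA is methylated. PSMC1 was the subunit called lower under each way of processing tried, and PSMA8 and PSMB11 are tissue-restricted subunits listed at 0 in all control libraries. The windows run from 250 bases before to 50 bases after a RefSeq start of the gene, 5′ to 3′ on the gene's strand. They are on GRCh38.p14, with each CpG in capitals, and the first window listed for each gene was used. That start can differ from the gene coordinates given here. The PSMA1 window, chr11:14520337-14520636 (minus strand), lies inside a gene that runs from 14504874 to 14643635. The PSMC1 window is chr14:90256303-90256602 (plus strand), the PSMA8 window chr18:26133619-26133918 (plus strand) and the PSMB11 window chr14:23041962-23042261 (plus strand).
PSMC1: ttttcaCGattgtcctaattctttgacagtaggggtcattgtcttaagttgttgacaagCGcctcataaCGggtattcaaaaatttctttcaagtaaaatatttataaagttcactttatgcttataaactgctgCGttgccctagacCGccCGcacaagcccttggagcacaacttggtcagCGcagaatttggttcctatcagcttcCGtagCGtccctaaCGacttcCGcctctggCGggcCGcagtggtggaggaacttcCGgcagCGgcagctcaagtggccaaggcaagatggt
PSMA8: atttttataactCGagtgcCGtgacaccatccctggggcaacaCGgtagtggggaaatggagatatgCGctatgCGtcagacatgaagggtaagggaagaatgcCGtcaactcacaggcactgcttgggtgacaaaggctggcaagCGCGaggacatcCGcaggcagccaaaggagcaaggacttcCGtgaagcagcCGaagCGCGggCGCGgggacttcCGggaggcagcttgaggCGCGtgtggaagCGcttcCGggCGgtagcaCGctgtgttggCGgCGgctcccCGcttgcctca
PSMB11: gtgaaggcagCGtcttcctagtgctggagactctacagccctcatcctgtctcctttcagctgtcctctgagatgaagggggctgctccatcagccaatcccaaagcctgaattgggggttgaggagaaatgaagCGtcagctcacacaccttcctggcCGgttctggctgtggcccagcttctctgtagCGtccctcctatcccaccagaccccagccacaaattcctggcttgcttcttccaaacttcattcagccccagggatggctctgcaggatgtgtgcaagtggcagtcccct

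The 28 subunits with a promoter window in that table were mostly rich in CpG. Their windows held between 4 and 39 CpG sites, with a median of 21.5, beside a median of 14 over 27305 promoter windows of the same length. A window with 20 or more CpG sites was found for 57.1% of the subunits and 41.2% of all promoters. PSMA8 had 25 sites, PSMC1 had 15, and PSMB11, with 4, had the fewest. PSMA7, PSMB1 and PSMD4 had no window to match. Methylation was not analysed here.

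Values were FPKM, which are scaled to transcript length and library size, and were tested as log2(FPKM + 0.1) with limma. A gene is called lower or higher when its p, adjusted by Benjamini-Hochberg over all 12360 genes tested, was under 0.05. The summed FPKM was between 577735 and 592051 in 5aza libraries, against 601916 to 628399 in control libraries. Total reads are unknown. Steps between low values put the libraries' relative depth at 0.984 to 1.061 of that of control replicate 1, as a rough estimate. In 5aza libraries only 4.88% to 7.07% of the genes used lay near that estimate. For 5aza replicate 1, 5.46% lay near it and 6.03% lay near 1 log2 unit above or below it. The relative depth is therefore not settled. Of 9 epithelial markers, 7 passed the filter on low values; 4 of these (CDH1, KRT8, KRT18 and KRT19) were called higher, with log2 fold changes between 0.23 and 0.35, and 1 (EPCAM, -0.12) was called lower. KRT8 averaged 1151 FPKM in 5aza cells and 984 FPKM in control cells, and EPCAM averaged 153 FPKM in 5aza cells and 166 FPKM in control cells. CDX1 and VIL1 averaged under 0.5 FPKM. The 9 summed to 2869.8 to 2942 FPKM in 5aza libraries and 2367 to 2522 FPKM in control libraries. Of 9 markers of blood, endothelium and fibroblasts, 8 averaged under 0.5 FPKM and the other was COL1A1, and their summed level was 7.18 to 7.97 FPKM in 5aza libraries and 4.73 to 5.25 FPKM in control libraries. Bulk RNA cannot tell fewer expressing cells from less RNA per cell.

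Messenger RNA of the proteasome subunits stayed close to its control level after 5aza. The 29 subunits that passed the filter of at least 0.5 FPKM in at least 3 libraries had 5aza means between 86.8% and 105% of the control means. Of these 29 genes, 6 were called lower (20.7%), 0 were called higher and 23 did not pass. Over all genes tested, 13.1% were called lower and 10.6% higher, or 1619 and 1310 genes. The 6 were PSMA1, PSMA2, PSMA4, PSMA7 and PSMB2 of the core particle and PSMC1 of the regulatory particle. Genes of like abundance were called lower more often: of the 3216 tested genes with a control mean inside the subunits' own range of 28.7 to 422 FPKM, 29.7% were called lower and 7.09% higher. The difference between the subunits' share and these shares was not tested, and its side changed with the libraries: without control replicate 3, 10 of the 29 subunits and 30.4% of the genes of like control FPKM were called lower. At an unadjusted p under 0.05, limma put 12 of the 29 subunits lower and 0 higher. In either direction, limma put 1688 of the 3216 genes of like control FPKM and 4607 of all 12360 genes under that limit.

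**Figure D1:**
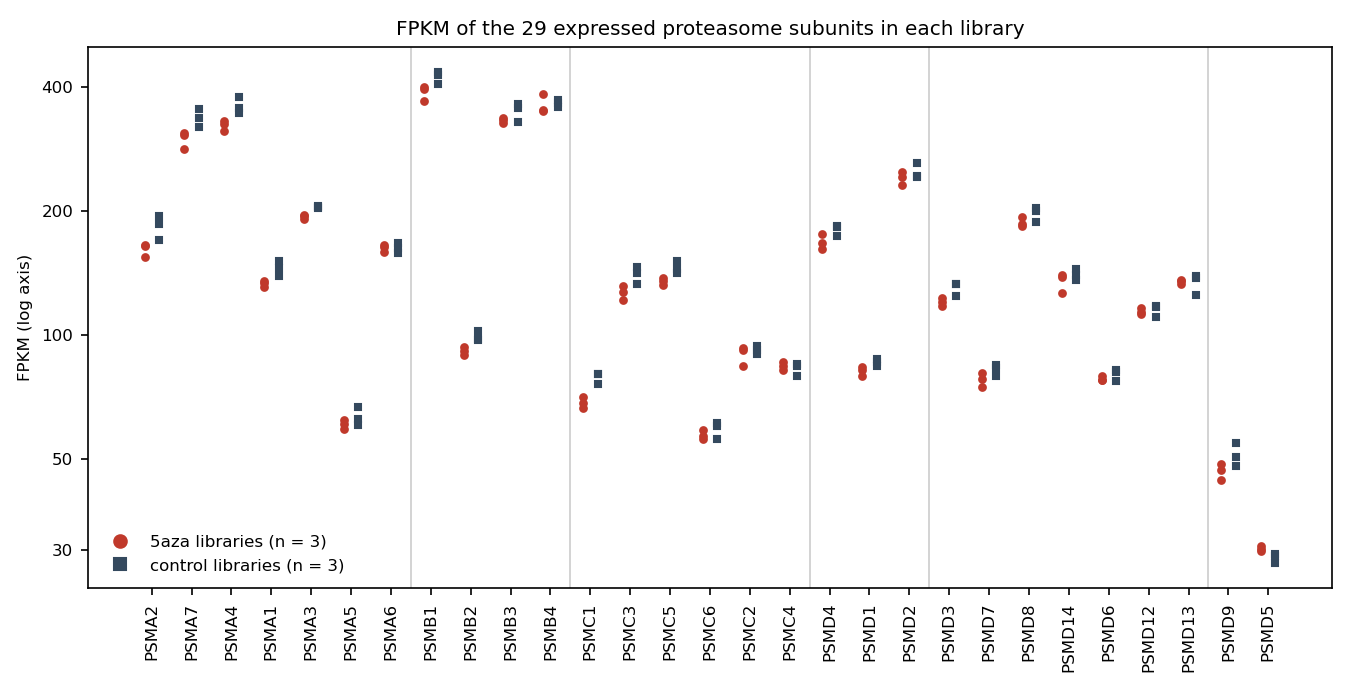
FPKM of the 29 expressed subunits (vertical, log axis) in each of 3 5aza libraries (left) and 3 control libraries (right), with the subunits grouped by ring, base, lid and assembly chaperones. Group means range from 28.7 FPKM for PSMD5 in control cells to 422 FPKM for PSMB1 in control cells, and the distance between subunits is far larger than that between the groups.

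**Figure D2:**
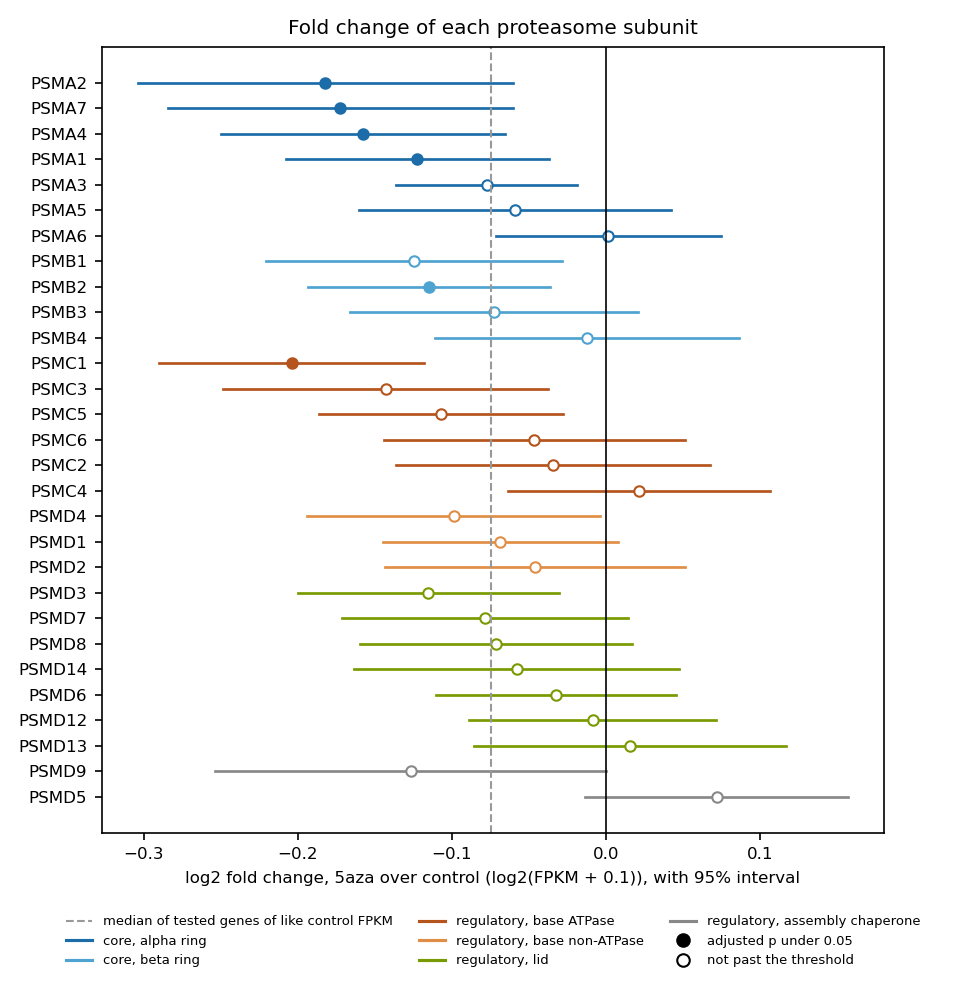
Log2 fold change of each subunit, 5aza over control, with its 95% interval (limma, n = 3 libraries a group); filled points passed the threshold, and the dashed line is the median of tested genes of like control FPKM (-0.07). All 29 intervals lie between -0.30 and 0.16. Below 0 lie 25 of 29 points, beside 2318 of 3216 tested genes of like control FPKM.

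The size of the differences is bounded by their intervals. The 95% intervals of the 29 log2 fold changes lay between -0.30 (PSMA2, lower bound) and 0.16 (PSMD5, upper bound). Of the 29 estimates, 25 were below 0, beside 2318 of the 3216 genes of like control FPKM and 6423 of all 12360 genes tested. The subunits' median log2 fold change was -0.07, beside -0.07 for genes of like control FPKM and -0.01 for all genes tested. These signs depend on the scaling. With each library rescaled to an equal sum, the subunits' median was 0.0075 and that of all genes 0.07; 1 subunit (PSMC1) was then called lower and 3 (PSMA6, PSMC4 and PSMD5) higher. Over all genes that scaling called 779 lower and 2239 higher, so that higher calls made up 74.2% of all calls, against 44.7% as deposited; with the expression trend of the fold changes removed they made up 55.7%.

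PSMA8 and PSMB11 are the members known for tissue-restricted roles. PSMA8 (chromosome 18, 26133852 to 26193355, GRCh38, GENCODE release 29, as for all gene coordinates here) encodes the alpha subunit that takes the place of PSMA7 in germ cells of the testis. It had 0.0890, 0.275 and 0.0859 FPKM in 5aza replicates 1 to 3 and was listed at 0 in all 3 control libraries. PSMB11 (chromosome 14, 23042167 to 23044276) encodes the beta subunit of the thymoproteasome of thymic cortical epithelium, and lies 6936 bases from PSMB5. It had 0.0186, 0.0553 and 0.0190 FPKM in 5aza replicates 1 to 3 and was likewise listed at 0 in every control library. Both genes thus had a value above 0 in all 5aza libraries, at levels far under those of any other member, with 5aza replicate 2 highest for each. Neither passed the filter on low values, so neither was tested; with no filter, limma called PSMA8 higher and did not call PSMB11. Such values were common: of 918 identifiers at 0 in all control libraries and above 0 in some 5aza library, 447 (48.7%) were above 0 in all 3 5aza libraries. Rows at 0 numbered 755 to 801 in 5aza libraries and 1663 to 1761 in control libraries, and the markers of other cells also summed higher in 5aza libraries; their part in the result was not tested.

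The alpha ring held 4 of the 6 subunits called lower. Of its 7 tested members, 4 were called lower and 3 did not pass, with a median log2 fold change of -0.12. Their control means were between 63.2 and 359 FPKM. Of all tested genes, 26.7% were called lower at 30 to 100 control FPKM, 39.8% at 100 to 300 and 46.6% at 300 or more. The difference between the ring and these shares was not tested. PSMA2 (chromosome 7, 42916857 to 42932223) had 164, 165 and 155 FPKM in 5aza replicates 1 to 3, against 186, 194 and 170.0 FPKM in control replicates 1 to 3. Its groups did not overlap, although control replicate 3 lay nearer to the 5aza libraries than to the other two controls. The log2 fold change was -0.18 (SE 0.0524, limma adjusted p = 0.0413).

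PSMA7 (chromosome 20, 62136735 to 62143440), the somatic counterpart of PSMA8, had 305, 308 and 282 FPKM in 5aza libraries, against 336, 353 and 319 FPKM in control libraries. The groups were separate, with 5aza replicate 3 the lowest and control replicate 2 the highest. Its log2 fold change was -0.17 (SE 0.0483, limma adjusted p = 0.0379). PSMA4 (chromosome 15, 78540405 to 78552419), whose yeast counterpart is central to closing the entry gate, had 329, 324 and 311 FPKM in 5aza libraries, against 376, 355 and 346 FPKM in control libraries. Each 5aza value lay below each control value, and the log2 fold change was -0.16 (SE 0.0398, limma adjusted p = 0.0263). PSMA1 (chromosome 11, 14504874 to 14643635) had 135, 134 and 131 FPKM in 5aza libraries, against 145, 151 and 139 FPKM in control libraries. These groups were apart by less than the range of the controls, and the call was close to the threshold (log2 fold change -0.12, SE 0.0369, limma adjusted p = 0.0484).

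The other 3 tested alpha subunits did not pass. PSMA3 averaged 193 ± 2.02 FPKM in 5aza cells and 204 ± 0.724 FPKM in control cells (SD, n = 3 each); its groups did not overlap, and its limma adjusted p was 0.0623. PSMA5 averaged 60.7 FPKM in 5aza cells and 63.2 FPKM in control cells. PSMA6 had nearly the same mean in both groups, with 163 ± 3.19 FPKM in 5aza cells and 162 ± 4.29 FPKM in control cells (SD, n = 3 each). The 95% interval of its log2 fold change ran from -0.07 to 0.07, and that of PSMA2 from -0.304 to -0.0605. The ends of these intervals overlapped slightly, and the difference between the 2 genes was not tested.

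In the beta ring, 1 of 4 tested subunits was called lower. PSMB2 lay in the band of 30 to 100 control FPKM, where 26.7% of all tested genes were called lower. PSMB1, PSMB3 and PSMB4 lay at 300 or more, where that share was 46.6%. These 4 are the beta subunits without proteolytic activity; the rule leaves out PSMB5 to PSMB10, and PSMB11, a catalytic subunit, did not pass the filter. PSMB2 (chromosome 1, 35599544 to 35641844) had 91.5, 89.3 and 93.5 FPKM in 5aza libraries, against 102, 97.6 and 97.0 FPKM in control libraries. The groups were separate, and the log2 fold change was -0.11 (SE 0.0338, limma adjusted p = 0.0447). PSMB1 and PSMB4 were the most abundant subunits. PSMB1 (chromosome 6, 170535117 to 170553341) had 398, 394 and 369 FPKM in 5aza libraries, against 426, 435 and 405 FPKM in control libraries. Its groups did not overlap, yet it did not pass (log2 fold change -0.12, SE 0.0414, limma adjusted p = 0.0653). PSMB4 (chromosome 1, 151399534 to 151401944) had 384, 349.6 and 351 FPKM in 5aza libraries, against 372, 365 and 356 FPKM in control libraries. The groups overlapped, with 5aza replicate 1 above all controls and the other two 5aza libraries below them (log2 fold change -0.01, 95% interval -0.11 to 0.09, limma adjusted p = 0.864). PSMB3 averaged 331 FPKM in 5aza cells and 349 FPKM in control cells and did not pass.

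The catalytic subunits that complete the beta ring did not pass either. PSMB6 averaged 235 ± 6.90 FPKM in 5aza cells and 255 ± 13.4 FPKM in control cells (SD, n = 3 each; limma adjusted p = 0.0976); its groups barely missed each other, with 238.9 FPKM in the highest 5aza library and 239.5 FPKM in the lowest control library. PSMB5 averaged 181 FPKM in 5aza cells and 191 FPKM in control cells, and PSMB7 averaged 235 FPKM in 5aza cells and 242 FPKM in control cells. Of the immunoproteasome subunits that replace them under interferon, PSMB8 averaged 0.952 ± 0.262 FPKM in 5aza cells and 0.421 ± 0.149 FPKM in control cells (SD, n = 3 each). It was called higher (limma adjusted p = 0.0432), a call held in 7 of 15 alternatives. Its control values were 0.454, 0.259 and 0.550 FPKM in replicates 1 to 3, near the filter's limit of 0.5 FPKM. With no filter on low values PSMB8 was not called, so the call depends on that limit. PSMB9 averaged 11.5 FPKM in 5aza cells and 10.8 FPKM in control cells, and PSMB10 averaged 14.5 FPKM in 5aza cells and 16.6 FPKM in control cells; neither passed.

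PSMC1, an ATPase of the base, had the lowest log2 fold change of the tested subunits with the values as deposited. Together with PSMC3 and PSMC4 it belongs to the ATPases whose tails dock into the alpha ring and open its gate. PSMC1 (chromosome 14, 90256495 to 90275429) had 70.5, 66.4 and 68.4 FPKM in 5aza replicates 1 to 3, against 80.3, 80.2 and 76.0 FPKM in control replicates 1 to 3. The groups were well separate, with control replicate 3 the lowest control. Its log2 fold change was -0.20 (SE 0.0371, 95% interval -0.29 to -0.12, limma adjusted p = 0.0078). It was the 1 subunit called lower in all 16 alternatives, with log2 fold changes between -0.23 and -0.12 and adjusted p between 0.00661 and 0.033. PSMC1 also has 13 named pseudogenes in the annotation, the most of any subunit. None of the 32 named pseudogenes of 13 subunits has a row in the table, so how reads shared with them were counted is unknown and these values are uncertain to that extent.

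The other 5 ATPases did not pass. PSMC3 averaged 127 ± 5.09 FPKM in 5aza cells and 139.8 ± 6.79 FPKM in control cells (SD, n = 3 each). PSMC5 averaged 135 ± 2.45 FPKM in 5aza cells and 145 ± 5.02 FPKM in control cells (SD, n = 3 each). In both genes the groups did not overlap and the limma adjusted p was 0.057. PSMC2 averaged 89.7 FPKM in 5aza cells and 91.8 FPKM in control cells. PSMC6 averaged 57.1 FPKM in 5aza cells and 59.0 FPKM in control cells. PSMC4 had a mean slightly above its control, at 84.0 FPKM in 5aza cells and 82.8 FPKM in control cells, with overlapping groups.

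None of the 12 PSMD genes passed in either direction with the values as deposited (limma); PSMD3 and PSMD4 had an unadjusted p under 0.05. PSMD1 and PSMD2 are the large scaffolds of the base. PSMD1 averaged 81.6 ± 2.17 FPKM in 5aza cells and 85.6 ± 1.73 FPKM in control cells (SD, n = 3 each), with groups that did not overlap. PSMD2, which also docks shuttle proteins, averaged 240.2 FPKM in 5aza cells and 248 FPKM in control cells. The ubiquitin receptor PSMD4 averaged 168 ± 7.33 FPKM in 5aza cells and 179.9 ± 5.91 FPKM in control cells (SD, n = 3 each; limma adjusted p = 0.122). In the lid, PSMD14, the deubiquitinase that removes ubiquitin chains from substrates, averaged 135 ± 7.22 FPKM in 5aza cells and 139.9 ± 4.54 FPKM in control cells (SD, n = 3 each). Its partner PSMD7 averaged 77.9 FPKM in 5aza cells and 82.2 FPKM in control cells. The groups overlapped for PSMD2, PSMD4, PSMD14 and PSMD7.

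The scaffold proteins of the lid had log2 fold changes between -0.12 (PSMD3) and 0.02 (PSMD13). PSMD3 had 119.8, 122 and 117 FPKM in 5aza libraries, against 133, 133 and 124 FPKM in control libraries. It was the 1 lid subunit whose groups did not overlap, and its limma adjusted p was 0.056. PSMD8 averaged 187 FPKM in 5aza cells and 197 FPKM in control cells. PSMD6 averaged 78.2 FPKM in 5aza cells and 80.0 FPKM in control cells. PSMD12 averaged 114 FPKM in 5aza cells and 115 FPKM in control cells, and PSMD13 averaged 135 FPKM in 5aza cells and 133 FPKM in control cells. The groups of these last 4 overlapped.

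PSMD5 and PSMD9 are chaperones that assemble the base and leave the finished particle. PSMD9 averaged 46.6 FPKM in 5aza cells and 51.0 FPKM in control cells, with overlapping groups. PSMD5 was the 1 tested member whose 5aza values all lay above its control values, with 30.1, 30.7 and 29.8 FPKM in 5aza libraries against 28.98, 29.4 and 27.9 FPKM in control libraries (limma adjusted p = 0.195).

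All 5aza values lay below all control values in 12 of the 29 tested subunits and above them in 1. Over all genes tested, 22.6% had 5aza below control and 19.6% had 5aza above control. Over genes of like control FPKM the shares were 43.3% and 12.3%, so 12 of 29 is close to that background.

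With the values as deposited, most of the calls fell in the core particle. Of 11 tested core subunits, 5 were called lower, and of 18 tested genes of the regulatory particle, 1 was. The median log2 fold change was -0.11 in the core and -0.06 in the regulatory particle, beside -0.07 for genes of like control FPKM. Core genes were also the more abundant, with control means between 63.2 and 422 FPKM, beside 28.7 to 248 FPKM in the regulatory particle. Among tested genes, the share called lower was 26.7% at 30 to 100 control FPKM, 39.8% at 100 to 300 and 46.6% at 300 or more, and the medians were -0.06, -0.10 and -0.12. All 5 subunits at 300 FPKM or more belong to the core, and 2 of them were called lower. At 100 to 300 FPKM, 2 of 4 core subunits and 0 of 9 regulatory genes were called lower, with median log2 fold changes of -0.10 and -0.07. At 30 to 100 FPKM, 1 of 2 core subunits and 1 of 8 regulatory genes were called lower. The split changed with the processing. Median-of-ratios size factors gave 5 core subunits and 4 regulatory genes called lower, beside 31.2% of genes of like control FPKM. The 3 other scalings tried, like the fit without the variance trend, gave 0 and 1, beside 15.2% to 17.3% of those genes. Members of 1 particle are no replicates of each other, so these counts carry no test.

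**Figure D3:**
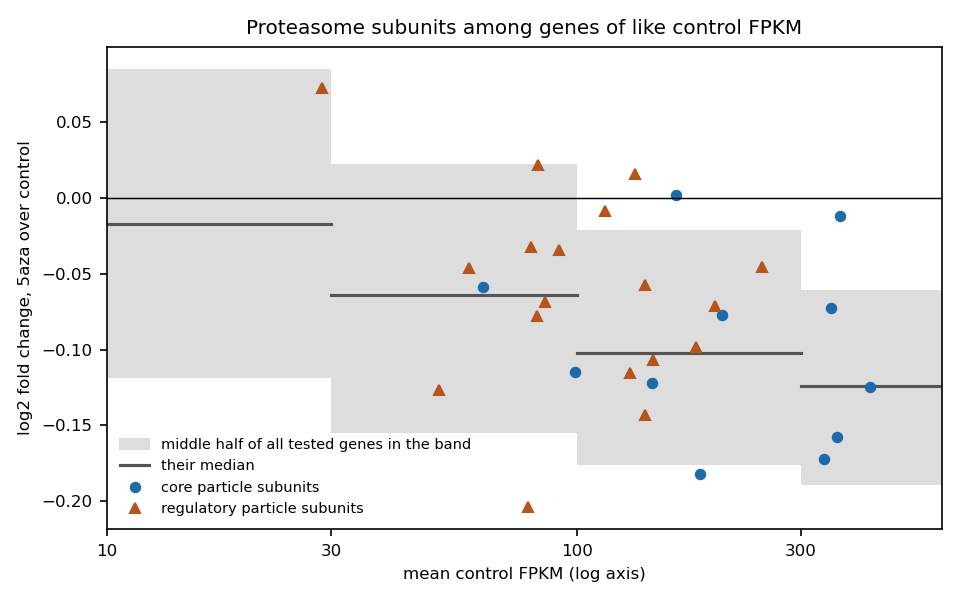
Log2 fold change, 5aza over control, of each subunit (core and regulatory particle marked apart) against its mean control FPKM (log axis). Grey boxes span the interquartile range and dark lines the median of all tested genes in each band of control FPKM; the medians go down with abundance to -0.12, and most subunits lie inside the boxes.

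Within each library the balance of the particles can be read without a common scale, but not apart from abundance. The median control level was 204 FPKM in core subunits and 103 FPKM in regulatory genes. Among all tested genes, the median log2 fold change was -0.06 at 30 to 100 control FPKM and -0.12 at 300 or more. The part of that trend in the balance was not tested. The mean log2 value of the core subunits minus that of the regulatory genes was 1.014, 0.989 and 1.014 in 5aza replicates 1 to 3, against 1.041, 1.047 and 1.039 in control replicates 1 to 3. The groups did not overlap, and their distance was a few hundredths of a log2 unit. The mean of the core alone was 7.64, 7.62 and 7.59 in 5aza libraries, against 7.74, 7.74 and 7.67 in control libraries. The mean of the regulatory genes was 6.63, 6.63 and 6.58 in 5aza libraries, against 6.70, 6.69 and 6.63 in control libraries. There the groups overlapped, since control replicate 3 was low. Summed over the 29 genes, the subunits took 0.757% to 0.77% of all FPKM in 5aza libraries and 0.761% to 0.775% in control libraries.

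**Figure D4:**
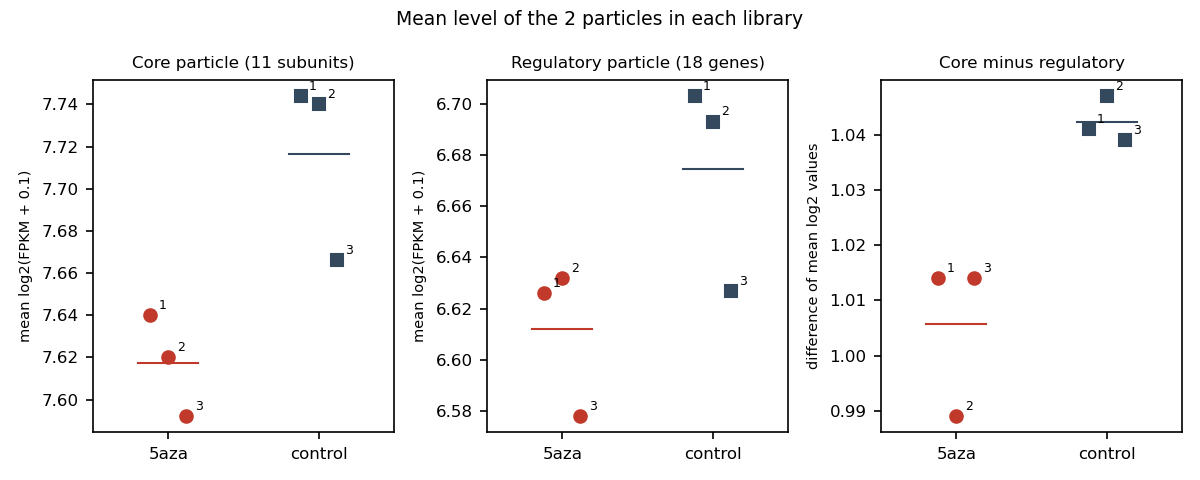
Mean log2(FPKM + 0.1) of the tested core subunits and regulatory genes in each library, and the difference between them; bars are group means, and the vertical axes do not begin at 0. Control replicate 3 lies nearest to the 5aza libraries in the panels of means, while in the panel of differences all 5aza libraries lie below all control libraries.

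Most calls other than that of PSMC1 depended on which libraries were used. Without control replicate 3, 10 subunits were called lower, 6 of the core and 4 of the regulatory particle. Without 5aza replicate 1 the count was 2 (PSMA4 and PSMC1), and without 5aza replicate 2, 5aza replicate 3, control replicate 1 or control replicate 2 it was 1, PSMC1 each time. Under the same omissions, the share of genes of like control FPKM called lower was 30.4% without control replicate 3 and 18.1% to 22.1% without one of the other 5 libraries. The core's median log2 fold change stayed between -0.13 and -0.09 under these omissions, beside -0.11 with all libraries.

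The level order of the subunits hardly changed. Of the 29 tested subunits, 17 had the same rank by mean FPKM in 5aza and control cells. The order began in both groups with PSMB1 and PSMB4, and ended with PSMD9 and PSMD5. PSMA4 and PSMB3, next in the order, traded places: in 5aza cells PSMA4 averaged 322 ± 9.17 FPKM and PSMB3 331 ± 4.24 FPKM, while in control cells they averaged 359 ± 15.8 and 349 ± 17.9 FPKM (SD, n = 3 each). In control cells that difference was smaller than both SDs, and in 5aza cells it was about as large as the larger one. Within the alpha ring, whose subunits enter the barrel in equal numbers, mean FPKM ranged from 60.7 (PSMA5) to 322 (PSMA4) in 5aza cells and from 63.2 to 359 in control cells.

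In the lists of core assembly genes and of activators and inhibitor, PSMG1 and PSME4 had log2 fold changes further from 0 than any tested subunit. The medians of these lists, -0.02 and -0.03, were nearer to 0 than the subunits' median of -0.07. Over all genes tested, 13.1% were called lower and 10.6% higher. Of 5 core assembly genes, 1 was called lower and 0 higher. This was PSMG1, a chaperone of alpha ring assembly, which had 40.0, 38.7 and 39.2 FPKM in 5aza libraries, against 49.3, 47.1 and 46.3 FPKM in control libraries. Its groups lay well apart, and the log2 fold change of -0.27 (SE 0.0361, limma adjusted p = 0.0021) was further from 0 than that of any tested subunit. POMP, which helps to join the beta ring to the alpha ring, averaged 149 FPKM in 5aza cells and 147 FPKM in control cells and did not pass. Of the 5 genes of alternative activators and an inhibitor, 1 was called higher and 0 lower. PSME4, the nuclear activator also known as PA200, had 24.2, 26.3 and 24.6 FPKM in 5aza libraries, against 20.3, 20.9 and 21.2 FPKM in control libraries (log2 fold change 0.27, SE 0.0452, limma adjusted p = 0.00561). PSME3 averaged 99.5 FPKM in 5aza cells and 107 FPKM in control cells and did not pass.

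Proteins of the particle outside the PSMA to PSMD names gave 1 call among 6 genes, beside 13.1% lower and 10.6% higher over all genes tested. The ubiquitin ligase UBE3C was called higher, with 49.4 ± 1.35 FPKM in 5aza cells and 45.0 ± 1.07 FPKM in control cells (SD, n = 3 each; limma adjusted p = 0.0324), in 9 of 16 alternatives. The ubiquitin receptor ADRM1 averaged 125 FPKM in 5aza cells and 134 FPKM in control cells, and the small lid protein SEM1 averaged 80.4 ± 15.2 FPKM in 5aza cells and 82.0 ± 2.46 FPKM in control cells (SD, n = 3 each); neither passed. PAAF1, a base assembly factor, averaged 10.3 FPKM in 5aza cells and 9.21 FPKM in control cells and did not pass.

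Of 10 genes that govern proteasome gene transcription, 1 was called higher and 1 lower, beside 10.6% and 13.1% of all genes tested. NFE2L1 itself had 69.1, 77.6 and 72.5 FPKM in 5aza libraries, against 73.0, 74.9 and 73.0 FPKM in control libraries. Its groups overlapped (log2 fold change -0.01, limma adjusted p = 0.869). Its relative NFE2L2 averaged 43.9 FPKM in 5aza cells and 46.1 FPKM in control cells and did not pass. DDI2, the protease that cuts NFE2L1 into its active form, averaged 10.1 ± 0.815 FPKM in 5aza cells and 8.61 ± 0.135 FPKM in control cells (SD, n = 3 each; limma adjusted p = 0.0426), a call held in 5 of 16 alternatives. KEAP1, the adaptor that targets NFE2L2 for degradation, had 50.3, 49.5 and 47.5 FPKM in 5aza libraries, against 60.0, 58.9 and 56.3 FPKM in control libraries (log2 fold change -0.25, SE 0.0387, limma adjusted p = 0.00407).

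The letters of the antioxidant response element, to which NFE2L1 and NFE2L2 bind, were looked for in the promoter windows. The core searched was TGACNNNGC, on both strands. It occurred in 7 of 28 subunit windows (25%), in 1 of 11 core windows and 6 of 17 regulatory windows, and in 13.6% of all promoter windows of that length. CCAAT, the box bound by the factor NFY, was found on either strand in 14 of 28 subunit windows (50%) and in 35.7% of all. PSMD3 is shown because it and PSMD9 were the subunits with more than 1 match to the element. Its matches, in capitals, begin 37 bases before and 34 bases after the RefSeq start, the later one on the other strand. The window is chr17:39980557-39980856 (plus strand), from RefSeq on GRCh38.p14.
PSMD3: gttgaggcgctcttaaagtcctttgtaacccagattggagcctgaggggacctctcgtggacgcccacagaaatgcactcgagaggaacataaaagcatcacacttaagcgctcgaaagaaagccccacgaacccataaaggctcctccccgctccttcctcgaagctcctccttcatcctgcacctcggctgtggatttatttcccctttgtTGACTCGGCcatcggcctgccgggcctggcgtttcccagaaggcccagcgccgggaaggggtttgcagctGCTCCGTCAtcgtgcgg
A match to these letters describes the window and is not a measured binding site.

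Among ubiquitin genes and the shuttles that carry tagged proteins to the proteasome, RAD23B and RPS27A were called lower. The shuttle gene RAD23B averaged 129 ± 0.746 FPKM in 5aza cells and 142 ± 5.28 FPKM in control cells (SD, n = 3 each; log2 fold change -0.14, limma adjusted p = 0.0198). RPS27A, a ubiquitin gene fused to a ribosomal protein, averaged 733 ± 25.5 FPKM in 5aza cells and 809 ± 32.3 FPKM in control cells (SD, n = 3 each; log2 fold change -0.14, limma adjusted p = 0.0414). Both calls held in 7 of 16 alternatives, while those of PSMG1, PSME4 and KEAP1 held in all 16.

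Other complexes of many subunits were read from the same fit. The COP9 signalosome and the translation factor eIF3 are built like the lid, from proteins with PCI and MPN domains. Of 10 COP9 genes tested, 3 were called lower and 0 higher, with a median log2 fold change of -0.14; this share is close to the 29.7% of genes of the subunits' FPKM range. COPS7A averaged 39.0 FPKM in 5aza cells and 48.3 FPKM in control cells, COPS9 averaged 136 FPKM in 5aza cells and 166 FPKM in control cells, and COPS6 averaged 82.6 FPKM in 5aza cells and 94.2 FPKM in control cells. Of 12 eIF3 genes tested, 0 passed with limma, with a median of -0.04. Their median control level was 185 FPKM, and 39.8% of all tested genes at 100 to 300 FPKM were called lower. At an unadjusted p under 0.05, limma put 4 of these 12 eIF3 genes in either direction. That compares with 1688 of the 3216 genes of the subunits' FPKM range and 4607 of all 12360 genes tested. In the cytosolic chaperonin, an abundant folding machine, 4 of 7 tested genes were called lower, with a median of -0.11 and control means of 235 to 404 FPKM, beside 39.8% of all tested genes at 100 to 300 FPKM and 46.6% at 300 or more. In this list CCT7 averaged 353 FPKM in 5aza cells and 389 FPKM in control cells. The differences between complexes were not tested.

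PSMC3IP, the recombination gene whose symbol begins like a subunit's, averaged 18.2 ± 0.880 FPKM in 5aza cells and 21.2 ± 0.756 FPKM in control cells (SD, n = 3 each; log2 fold change -0.22, limma adjusted p = 0.0189).

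**Figure D5:**
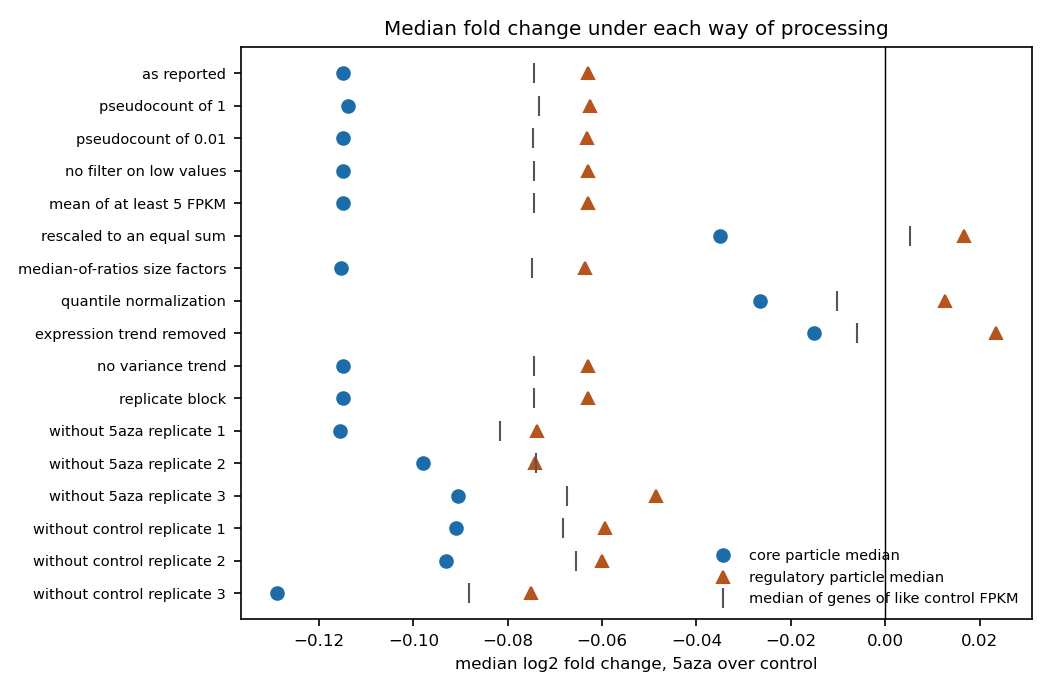
Median log2 fold change, 5aza over control, of the core subunits, the regulatory genes and all tested genes of like control FPKM under each way of processing. In every row the core median lies left of the regulatory one; rescaling to an equal sum, quantile normalization and removal of the expression trend bring all 3 medians near 0, with the regulatory median above it.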

How the data were processed

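The authors deposited 1 table of FPKM values for 6 RNA-seq libraries, already scaled, as the unit implies, to transcript length and library size. Per the submitters' processing notes, DESeq2 (1.10.1), HTSeq (0.6.0) and STAR (2.5.1b) were among the tools, and both a human build, GRCh38, and a rat build are named; no role is given for any of them. Which program made the FPKM values, the strand setting and the total reads could not be learned from the labels or the file headers. Columns were matched to samples through the sample descriptions. Of 16726 rows, 11 identifiers occurred more than once, and of each the row of higher mean FPKM was retained, leaving 16715. Symbols were found for 15421 of 15451 Ensembl identifiers. Coordinates are from GENCODE release 29 on GRCh38, and promoter windows from RefSeq, GRCh38.p14, matched by symbol.

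The 12360 genes that reached 0.5 FPKM in 3 libraries or more were tested as log2(FPKM + 0.1) with limma 3.58.1 in R 4.3.3 (two-sided, moderated variances following a trend on level), and p-values were adjusted by Benjamini-Hochberg over all of them. The fit was tested on simulated data with added changes larger than any found in the subunits, so that test does not cover changes of their size. Fold changes on this scale understate changes of low genes. Alternatives changed the pseudocount, the filter, the scaling, the variance trend, a replicate block and the libraries. Low FPKM values did not give whole reads, so no count test was run. All subunits were named, with library values for those past the threshold, the 2 most abundant and those under 1 FPKM; of each related list the genes past the threshold were named, at most 3 in each direction, plus PSMB5, PSMB6, PSMB7, NFE2L1, NFE2L2, ADRM1, SEM1, POMP and PSME3; some genes of the list of ubiquitin supply and shuttles are not reported here. PSMB9, PSMB10 and PAAF1, the library values of PSMD5 and PSMD3, and the control library values of PSMB8, were added after their values were seen. The subunits and the related lists were chosen with earlier results of these data known.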

Additional observations from a re-analysis of the deposited data

How the results depend on the processing

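As deposited, 6 subunits were called lower and 0 higher, and pseudocounts of 1 and 0.01 gave the same counts. With no filter on low values 3 were called lower and 1 higher, beside 8.79% and 10.7% of all genes. Without the variance trend 1 was called lower, beside 1041 genes, or 8.42%, in all. Rescaling to an equal sum gave 1 subunit lower and 3 higher, with median log2 fold changes of 0.0075 over all tested subunits, -0.0351 in the core and 0.0167 in the regulatory particle, and 779 genes lower and 2239 higher in all. Quantile normalization gave 1 subunit lower and 2 higher, beside 10.6% and 10.8% of all genes tested. Its median log2 fold changes were 0.0076 over all tested subunits, -0.0266 in the core and 0.0127 in the regulatory particle. Removing the expression trend gave 1 subunit lower and 4 higher, beside 9.47% and 11.9% of all genes tested. The median log2 fold changes were then 0.0085 over all tested subunits, -0.0151 in the core and 0.0235 in the regulatory particle. The cause of these shifts was not tested. The core median stayed below the regulatory median under each of the 16 alternatives, and PSMC1 stayed called lower under each. 

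Leaving out 1 library at a time gave 1 to 10 subunits called lower, 1635 to 2607 genes called, 940 to 1523 lower and 693 to 1084 higher, and core medians of -0.129 to -0.0906. With the replicate block, 11 subunits were called lower and 0 higher, 6 of the core and 5 of the regulatory particle, beside 31.9% of genes of like control FPKM. Same-numbered libraries deviated together only weakly (correlations 0.048, 0.077 and 0.068), each highest with its own number, and nothing in the labels pairs them, so the block was not used.

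The calls of PSMA1, PSMA2, PSMA7 and PSMB2 held in 6 of 16 alternatives and that of PSMA4 in 8 of 16. The log2 fold changes of single genes that took the other sign were as follows. After rescaling to an equal sum, the log2 fold change was 0.0025 for PSMA3, 0.021 for PSMA5, 0.0075 for PSMB3, 0.0676 for PSMB4, 0.0453 for PSMC2, 0.0334 for PSMC6, 0.0113 for PSMD1, 0.0339 for PSMD2, 0.0475 for PSMD6, 0.0015 for PSMD7, 0.0089 for PSMD8, 0.0713 for PSMD12, 0.0221 for PSMD14, 0.00019 for PSMB5, 0.04 for PSMB7, 0.0674 for NFE2L1, 0.0097 for NFE2L2 and 0.033 for SEM1. After quantile normalization, the log2 fold change was 0.0135 for PSMA3, 0.0071 for PSMA5, 0.0356 for PSMB3, 0.0773 for PSMB4, 0.0498 for PSMC2, 0.0176 for PSMC6, 0.0065 for PSMD1, 0.0449 for PSMD2, 0.0076 for PSMD4, 0.0303 for PSMD6, 0.0211 for PSMD8, 0.0657 for PSMD12, 0.0078 for PSMD14, 0.0211 for PSMB5, 0.0749 for PSMB7, 0.06 for NFE2L1, 0.021 for SEM1 and 0.0037 for RPS27A. With the expression trend removed, the log2 fold change was 0.0224 for PSMA3, 0.0085 for PSMA5, 0.0351 for PSMB3, 0.096 for PSMB4, 0.0444 for PSMC2, 0.0189 for PSMC6, 0.0078 for PSMD1, 0.0575 for PSMD2, 0.0423 for PSMD6, 0.028 for PSMD8, 0.0783 for PSMD12, 0.0338 for PSMD14, 0.0186 for PSMB5, 0.0632 for PSMB7, 0.0598 for NFE2L1 and 0.0284 for SEM1. Over the omissions of 1 library, it was -0.0178 to 0.0204 for PSMA6, -0.0566 to 0.0273 for NFE2L1, -0.0064 to 0.0585 for POMP, -0.0569 to 0.0115 for PSMB4, -0.0608 to 0.0113 for PSMC2, -0.0377 to 0.0083 for PSMD12, -0.0041 to 0.1444 for PSMB9, -0.1775 to 0.0986 for SEM1, -0.0078 to 0.0397 for PSMC4 and -0.033 to 0.0438 for PSMD13. 

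Each group has 3 libraries and total reads are unknown, so no limit from depth can be set on low genes; PSMA8 and PSMB11 in particular rest on values under 0.3 FPKM.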
